A study of Homo sapiens with 8 samples.

Results

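The S100 family was followed through 10 genes (S100A2, S100A3, S100A4, S100A6, S100A8, S100A9, S100A10, S100A11, S100A13 and S100A16), which were taken by symbol from a table of read counts for 23393 genes. RNA-seq was performed on 8 libraries of MDA-MB-231, an established line of human breast cancer cells that hold little of the arginine-making enzyme ASS1. There were 2 libraries for each of 4 groups, namely parental cells in full medium (parental control), parental cells after arginine starvation for 48 h (parental starved), ρ0 cells in full medium (ρ0 control) and ρ0 cells after the same starvation (ρ0 starved). The labels describe starvation as arginine deiminase (ADI), an arginine-degrading enzyme, added at 0.3 µg/mL, whereas the methods describe arginine-starved medium. ρ0 cells are cells depleted of mitochondrial DNA with ethidium bromide. Here they came from 1 clone (number 27) that the methods describe as kept with sodium pyruvate, uridine and ethidium bromide, supplements not listed for parental cells. Clone, supplements and the loss of mitochondrial DNA cannot be told apart in any difference between the lines. All groups were grown in high-glucose DMEM with serum. The methods name antibiotics for parental cells but not for ρ0 cells. For the arginine-starved medium they list dialyzed serum with added glutamine and lysine.

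The libraries held between 25259503 and 31022155 counts. The libraries of a group agreed closely in parental control, parental starved and ρ0 starved cells, with a biological coefficient of variation of 5.18%, 2.25% and 1.84%. The ρ0 control libraries stood apart from each other, with a coefficient of 25.1%, so results of the members that use them are also given without 1 of them, and those of other genes where this changed a call given here or moved a fold by over 1.5 times. Mesenchymal genes that mark MDA-MB-231 were abundant in all 8 libraries, with between 2248 and 6841 summed CPM (counts per 1000000 of the normalized library) over VIM, CD44, AXL, ZEB1, SNAI2 and FN1. The hormone receptor genes ESR1 and PGR had at most 6 and 1 counts in any library.

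S100 proteins are small proteins that bind calcium through a pair of EF-hand loops, mostly as dimers, and then bind partner proteins such as annexins, myosin or p53. They have no known enzyme activity, and several are exported from cells and act on receptors such as RAGE and TLR4. In breast cancer, S100A4 is known as a metastasis-associated protein, and S100A8 with S100A9 as calprotectin, a product mainly of neutrophils and monocytes.

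Promoters of 4 members are shown, S100A4 and S100A3 for their falls on starvation and S100A6 and S100A10 for the most similar profiles of any pair of members. Each line holds the 250 bases before the RefSeq start (GRCh38.p14, minus strand), at chr1:153545807-153546056 for S100A4, chr1:153549259-153549508 for S100A3, chr1:153535992-153536241 for S100A6 and chr1:151993860-151994109 for S100A10. Capitals mark matches, on either strand, to the TATA box (letters TATAAA), the GC box (letters GGGCGG), the CCAAT box and the AP-1 motif (letters TGANTCA).
S100A4: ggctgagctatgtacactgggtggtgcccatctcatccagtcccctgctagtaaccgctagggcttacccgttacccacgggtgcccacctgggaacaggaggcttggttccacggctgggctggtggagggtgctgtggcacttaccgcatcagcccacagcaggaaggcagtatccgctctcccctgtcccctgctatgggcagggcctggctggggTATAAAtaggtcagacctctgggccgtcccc
S100A3: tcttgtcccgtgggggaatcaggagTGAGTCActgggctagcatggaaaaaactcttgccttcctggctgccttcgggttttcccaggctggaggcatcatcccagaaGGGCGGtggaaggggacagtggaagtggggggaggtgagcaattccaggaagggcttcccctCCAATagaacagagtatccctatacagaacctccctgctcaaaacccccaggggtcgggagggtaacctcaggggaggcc
S100A6: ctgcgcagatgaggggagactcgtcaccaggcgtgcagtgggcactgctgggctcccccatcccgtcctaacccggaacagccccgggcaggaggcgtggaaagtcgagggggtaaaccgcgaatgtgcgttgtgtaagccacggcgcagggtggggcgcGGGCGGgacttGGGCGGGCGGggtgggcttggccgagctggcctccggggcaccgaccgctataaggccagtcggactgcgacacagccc
S100A10: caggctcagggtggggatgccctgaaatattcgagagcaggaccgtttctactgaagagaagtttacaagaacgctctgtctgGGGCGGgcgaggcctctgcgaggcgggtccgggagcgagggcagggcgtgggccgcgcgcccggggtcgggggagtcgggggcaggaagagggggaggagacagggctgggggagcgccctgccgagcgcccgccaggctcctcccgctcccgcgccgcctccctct
The S100A4 promoter held TATAAA at -31 and none of the other motifs. TATAAA was found in 10.7% of all 35116 promoters of the same length. The S100A3 promoter held TGAGTCA at -225, GGGCGG at -142 and CCAAT at -80. TGANTCA was found in 6.57% of promoters, and CCAAT in 32.0%. GGGCGG, which Sp1 binds, stood at -90, -79 and -75 before S100A6, where the last 2 matches overlap, and at -167 before S100A10. GGGCGG was in 42.6% of promoters, so its presence is common. TTGCATCA, the C/EBP-ATF element bound by ATF4, was in 0.772% of promoters and in 0 of the 16 windows of the 10 members. These matches describe letters only, and the counts do not test them.

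S100A6 was the leading S100 transcript in every group. Levels were compared between genes per length, as CPM per kb of the median GENCODE transcript. In parental control cells S100A6 stood at 1065 ± 53.4 (SD, n = 2), or 51.3% of the summed level of the 10 genes. S100A11 (332 ± 12.4) and S100A16 (324 ± 10.3) followed and did not differ beyond their spread. Below them came S100A10 at 169 ± 7.51, S100A13 at 99.8 ± 1.03 and S100A4 at 51.2 ± 5.64 CPM per kb. S100A3 and S100A2, both near 15.4, did not differ beyond their spread, and S100A9 stood at 3.71 ± 0.543. In ρ0 control cells S100A4 was the gene whose rank moved most. It was second to S100A6 at 1411 ± 537 CPM per kb, above S100A11 at 993 ± 93.3, although the lower S100A4 library (1031) lay below the higher S100A11 library (1059). Below them came S100A10 (796 ± 18.0) and S100A16 (289 ± 27.5), then S100A2 (131 ± 73.9) and S100A13 (98.7 ± 15.5), which overlapped, and S100A3 (53.1 ± 10.0). In parental starved cells the order was S100A6 (955), S100A16 (501), S100A11 (496), S100A10 (154), S100A13 (73.5), S100A2 (27.9), S100A4 (3.73) and S100A3 (1.28 CPM per kb). In ρ0 starved cells it was S100A6 (4161), S100A11 (1380), S100A10 (522), S100A4 (449), S100A16 (336), S100A13 (71.6), S100A2 (66.5) and S100A3 (21.8 CPM per kb). No neighbours in these 2 orders overlapped between libraries. The order of close genes, such as S100A16 and S100A11, also depends on the transcript length used, which ranged from 946 to 1146 bases for S100A16. The share of S100A4 in the summed level was 2.47% in parental control, 0.169% in parental starved, 15.7% in ρ0 control and 6.41% in ρ0 starved cells.

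**Figure D1:**
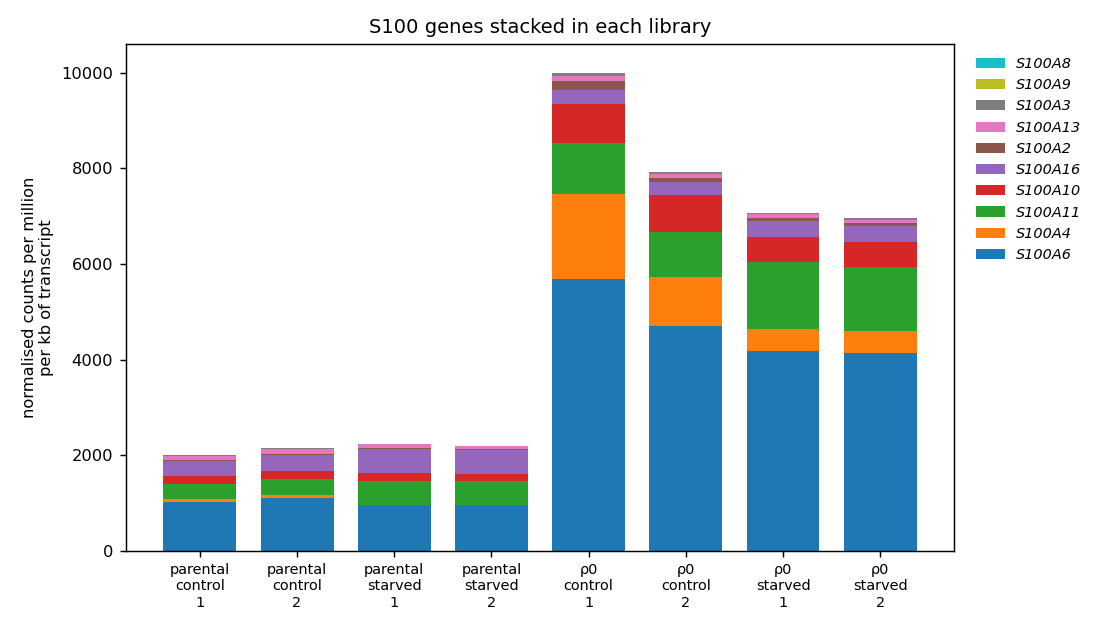
Stacked levels of the 10 S100 genes in each of the 8 libraries, in CPM per kb of transcript (linear axis from 0, 1 bar per library, 1 color per gene). S100A6 is the largest block in every bar, and S100A4 is the second largest block in the ρ0 control bars.

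The lines were compared first in full medium. Of the 10 genes, 6 were higher in ρ0 than in parental control cells (S100A2, S100A3, S100A4, S100A6, S100A10 and S100A11), S100A13 and S100A16 did not pass the test, and S100A8 had too few counts to test. S100A9 passed the filter on low counts only through parental control cells, where it was high, so it is left out of the counts and medians of members and described apart. All 6 higher genes were DEGs, that is, they had an adjusted p under 0.05 and a log2 fold change beyond 1 in either direction. Among the 15262 genes tested, 30.5% were higher and 31.8% lower in ρ0 cells, and 13.6% were higher as DEGs. The median log2 difference was 2.01 over the 8 S100 genes and -0.01 over all tested genes. Without ρ0 control library 1 or 2, 8 and 7 members passed the test in place of 6, while the share of all tested genes that passed went from 62.3% to 78.1% and 77%. The 10 genes took 0.163 ± 0.00755% of all counts in parental control and 0.610 ± 0.0858% in ρ0 control cells. In bulk RNA, fewer cells of a type and less RNA per cell cannot be told apart. The p-values are those of edgeR's quasi-likelihood test after Benjamini-Hochberg adjustment over all tested genes (called edgeR adjusted p).

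S100A4, which binds the heavy chain of non-muscle myosin IIA, had the largest difference of the 8 members counted in both control groups. Its levels were 26.9 and 31.4 CPM in the parental control libraries and 1019 and 587 in the ρ0 control libraries. The ranges were far apart, and the ρ0 libraries also differed much from each other. The difference was 27.6-fold (log2 4.78 ± 0.27 SE, edgeR adjusted p = 8.36e-06), and log2 4.34 or 5.19 without ρ0 control library 1 or 2. S100A2, a mainly nuclear member known to bind p53, stood at 8.30 and 10.9 CPM in parental control and at 115 and 49.4 in ρ0 control cells. Both ρ0 libraries were above both parental ones. The log2 difference was 3.10 ± 0.38 (edgeR adjusted p = 0.000281), with 2.37 and 3.64 on leaving out ρ0 control library 1 or 2. S100A3, known from the hair cuticle, had 10.6 and 11.5 CPM in parental control and 43.2 and 33.0 in ρ0 control cells. The groups did not overlap, with a log2 difference of 1.79 ± 0.15 (edgeR adjusted p = 4.50e-05), which was 1.58 or 2.02 without the first or second ρ0 control library.

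The annexin-binding members S100A6, S100A10 and S100A11 were all higher in ρ0 cells. S100A6 (calcyclin) counted 687 and 738 CPM in parental control libraries against 3802 and 3146 in ρ0 control libraries, without overlap. The difference was 4.88-fold (log2 2.29 ± 0.11, edgeR adjusted p = 4.52e-06), and log2 2.14 or 2.47 without ρ0 control library 1 or 2. S100A10, which forms a membrane complex with annexin A2, had 149 and 158 CPM in parental control and 735 and 712 in ρ0 control cells. Both ρ0 libraries were higher, by log2 2.24 ± 0.08 (edgeR adjusted p = 1.17e-06), and by 2.22 or 2.32 without 1 of them. For S100A11, a partner of annexin A1, the levels were 192 and 203 CPM against 629 and 551, again without overlap. Its log2 difference was 1.58 ± 0.09 (edgeR adjusted p = 9.17e-06), with 1.48 and 1.73 when either ρ0 control library was left out.

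**Figure D2:**
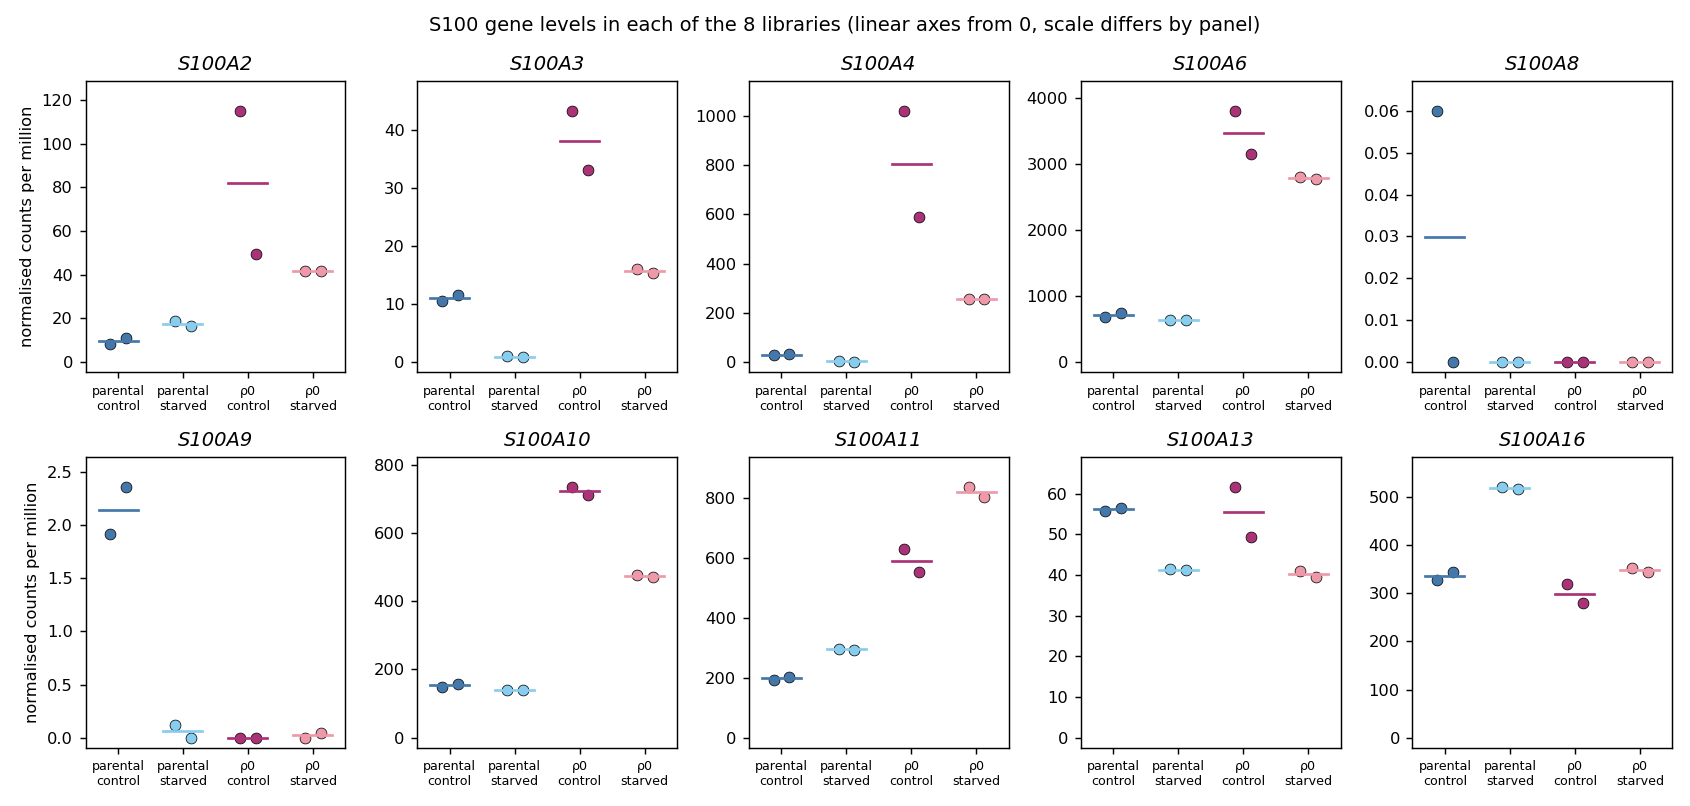
Normalized levels (CPM) of each S100 gene in the 8 libraries, with 1 point per library and a line at the group mean (linear axes from 0, each panel on its own scale). S100A4 spans 1019 and 587 CPM in ρ0 control cells against 26.9 and 31.4 in parental control cells, whereas S100A13 and S100A16 of these groups overlap or nearly so.

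S100A16, a widely expressed member, stood at 329 and 344 CPM in parental control and 320 and 279 in ρ0 control cells (log2 -0.17 ± 0.09, edgeR adjusted p = 0.134). These groups did not overlap, but the gap was small beside the spread of the ρ0 pair. Without ρ0 control library 1 the difference passed the test at -0.27, and without library 2 it was -0.02. It also passed with total count scaling, at -0.26 (edgeR adjusted p = 0.0261), which moved the median of all genes from -0.01 to -0.11. S100A13, which takes part in the export of FGF1 and IL-1α, had 55.8 and 56.6 CPM in parental control and 61.7 and 49.4 in ρ0 control cells. These ranges overlapped, and the difference of -0.02 ± 0.11 (edgeR adjusted p = 0.904) became -0.19 or 0.19, past the test both times (edgeR adjusted p = 0.0130 and 0.0100), on leaving out library 1 or 2.

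S100A9 and S100A8 were close to the detection limit. S100A9 had 64 and 68 counts in the parental control libraries, 3 and 0 in parental starved, 0 and 0 in ρ0 control, and 0 and 1 in ρ0 starved cells. Its level in parental control cells was at least 21.3-fold that in ρ0 control cells, against a floor of 3 counts per library. S100A8 had 2 counts in a single parental control library and 0 in the other 7, so no difference in it was detectable at this depth. The myeloid markers PTPRC, CD14, ITGAM, CSF1R, CSF3R, LYZ, MPO, ELANE, TYROBP and FCER1G summed to between 0.594 and 10.3 CPM per library. They were 2.28 and 2.08 CPM in parental control, 0.594 and 1.17 in parental starved, 10.3 and 5.50 in ρ0 control and 2.37 and 3.27 in ρ0 starved cells. The genes of this list did not all move together between the control groups. CD14, CSF1R and LYZ were higher in ρ0 control than in parental control cells. The whole list summed to 76 and 60 counts in the parental control libraries, led by ITGAM. These 3 differences thus start near the floor, and their tests are not read. CSF3R had 11 and 5 counts in parental control, 0 and 1 in parental starved and 0 in all ρ0 libraries. ITGAM had 30 and 23 counts in parental control, 2 and 2 in parental starved, 7 and 25 in ρ0 control and 3 and 3 in ρ0 starved cells. TYROBP was at 0 in every library. MPO had at most 2 counts. On starvation 2 of the 5 tested myeloid markers fell and 0 rose in parental cells (35.5% and 30.4% of all tested genes). In ρ0 cells 4 fell and 0 rose (22.1% and 19.2% of all), at low counts and from an uneven control pair. Not all of these 4 calls held without ρ0 control library 1 or 2. CSF1R changed by log2 -2.11 with all libraries, and by -0.82 or -2.79 without library 1 or 2. ITGAM changed by -2.20, and by -2.80 or -1.08. LYZ, which did not pass, changed by -1.23, and by 0.06 or -1.90. The median log2 change of the 5 markers in ρ0 cells was -2.11, and -0.94 or -1.90 without ρ0 control library 1 or 2.

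Luminal markers, and most mesenchymal markers, moved with the line in the same direction as the 6 S100 genes. Of the 6 mesenchymal genes above, 4 were higher in ρ0 control cells (VIM, CD44, AXL and SNAI2) and ZEB1 was lower, against 30.5% and 31.8% of all tested genes. FN1 did not pass the test, at 0.02 ± 0.54. Its difference was -1.44 or 0.78, in opposite directions, without ρ0 control library 1 or 2. On leaving out ρ0 control library 1 or 2, 4 and 5 were higher and 2 and 1 lower. Their summed level was 3617 and 3668 CPM in parental control, 2253 and 2248 in parental starved, 6058 and 6841 in ρ0 control and 5263 and 5118 in ρ0 starved cells. Of the 9 genes of the luminal breast list 7 were tested. CDH1, at 2 and 0 against 457 and 440 counts, passed the filter on low counts only through ρ0 cells, so its test is not read. The other tested genes, EPCAM, ERBB2, GATA3, KRT8, KRT18 and KRT19, were each higher in ρ0 control cells (30.5% of all tested genes). EPCAM stood at 0.420 and 0.521 against 23.7 and 22.4 CPM. The summed level of the luminal list was 466 and 485 CPM in parental control, 335 and 340 in parental starved, 1312 and 1493 in ρ0 control and 576 and 557 in ρ0 starved cells, led by KRT8 or KRT18. Keratinocyte markers summed to 21.5 and 24.6 CPM in parental control, 51.8 and 49.2 in parental starved, 39.8 and 39.6 in ρ0 control and 46.3 and 46.1 in ρ0 starved cells, nearly all of it KRT10. KRT5 and LOR had at most 2 and 1 counts, and SPRR1B was at 0 in every library. Some low keratinocyte markers moved with the groups. TP63 had 3 and 2 counts in parental control, 1 and 0 in parental starved, 66 and 40 in ρ0 control and 13 and 12 in ρ0 starved cells. KRT6A had 0 and 0 counts in parental control and 4 and 13 in ρ0 control cells, KRT16 had 1 and 1 against 12 and 4, and IVL had 0 and 1 in parental control and 13 and 19 in parental starved cells. The part of these markers in the S100 differences was not tested, nor was a common origin of the lines.

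When both lines were starved, 6 S100 genes were again higher in ρ0 cells, S100A16 was lower, and S100A13 did not pass the test. Among all tested genes, 32.9% were higher and 33.5% lower, and 18.7% were higher as DEGs. The median over the 8 S100 genes was 1.62 on the log2 scale, against -0.01 over all. S100A4 stood at 2.30 and 1.95 CPM in parental starved and at 254 and 257 in ρ0 starved libraries, a 120-fold difference (log2 6.91 ± 0.32, edgeR adjusted p = 2.94e-06). S100A3 had 0.950 and 0.886 CPM against 16.02 and 15.3, a 17.0-fold difference (log2 4.09 ± 0.19, edgeR adjusted p = 3.25e-06). In these groups the libraries of a pair lay close together, and no range overlapped for either gene. S100A6 was higher by log2 2.12 ± 0.11 (643 and 635 against 2799 and 2769 CPM), S100A10 by 1.76 ± 0.08 and S100A11 by 1.48 ± 0.09, with edgeR adjusted p of 4.51e-06, 2.19e-06 and 9.08e-06. S100A2 was higher by 1.25 ± 0.35 (18.7 and 16.3 against 41.7 and 41.6 CPM, edgeR adjusted p = 0.0155), a call that was lost on leaving out any 1 of these 4 libraries (edgeR adjusted p between 0.0524 and 0.0887). S100A16 was the member lower in ρ0 cells, with 521 and 517 CPM against 352 and 344 (log2 -0.58 ± 0.09, edgeR adjusted p = 0.000743). S100A13 differed by -0.04 ± 0.11 (edgeR adjusted p = 0.794), with 41.4 and 41.3 against 41.1 and 39.6 CPM.

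The response to starvation was then taken within each line. In parental cells 2 S100 genes rose (S100A11 and S100A16), 3 fell (S100A3, S100A4 and S100A13), and S100A2, S100A6 and S100A10 did not pass the test. S100A3 and S100A4 were DEGs. Of all tested genes, 30.4% rose and 35.5% fell, 22.1% as DEGs. The 5 of 8 members called are thus near the 65.9% of all tested genes. Their median was -0.14, against -0.07 over all tested genes.

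S100A4 and S100A3 fell most among the members with enough counts for a fitted change. S100A4 fell from 26.9 and 31.4 to 2.30 and 1.95 CPM (58 and 55 counts), a 13.7-fold fall (log2 -3.78 ± 0.30, edgeR adjusted p = 3.78e-05). S100A3 fell from 10.6 and 11.5 to 0.950 and 0.886 CPM (24 and 25 counts), a 11.98-fold fall (log2 -3.58 ± 0.19, edgeR adjusted p = 1.12e-05). Control and starved libraries were far apart for both genes. S100A9 fell from 132 to 3 counts over the pair of libraries, a ratio of 37.9 with a 95% counting interval of 12.7 to 186. All 3 counts were in starved library 1. The fitted change of S100A9 is not read, since the gene passed the filter on low counts only through parental control cells. S100A13 fell less, from 55.8 and 56.6 to 41.4 and 41.3 CPM (log2 -0.44 ± 0.11, edgeR adjusted p = 0.00985). That call was lost without parental control library 2 or either starved library (edgeR adjusted p = 0.0526, 0.0562 and 0.0591).

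The rises in parental cells were smaller. S100A16 rose from 329 and 344 to 521 and 517 CPM (log2 0.63 ± 0.09, edgeR adjusted p = 0.000507). S100A11 rose from 192 and 203 to 295 and 294 CPM (log2 0.58 ± 0.09, edgeR adjusted p = 0.000862). For both, every starved library was above every control library. S100A2 stood at 8.30 and 10.9 CPM before and 18.7 and 16.3 after starvation, without overlap, but its change of 0.86 ± 0.37 did not pass the test (edgeR adjusted p = 0.0704). It did in the parental libraries alone (edgeR adjusted p = 8.74e-06), with no filter, with the DESeq2 test and with group weights in limma-voom. S100A6 (687 and 738 to 643 and 635 CPM) and S100A10 (149 and 158 to 140 and 140 CPM) were slightly lower in each starved library. Their log2 changes of -0.16 ± 0.11 and -0.13 ± 0.07 did not pass the test (edgeR adjusted p = 0.224 and 0.153), although both passed with scaling to the upper quartile or to total counts, which lowered the median of all genes from -0.07 to -0.19 and -0.23. They also passed with group weights in limma-voom (adjusted p = 0.00409 and 0.0181), where that median stayed at -0.07, and S100A6 passed in the parental libraries alone (edgeR adjusted p = 0.0184).

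**Figure D3:**
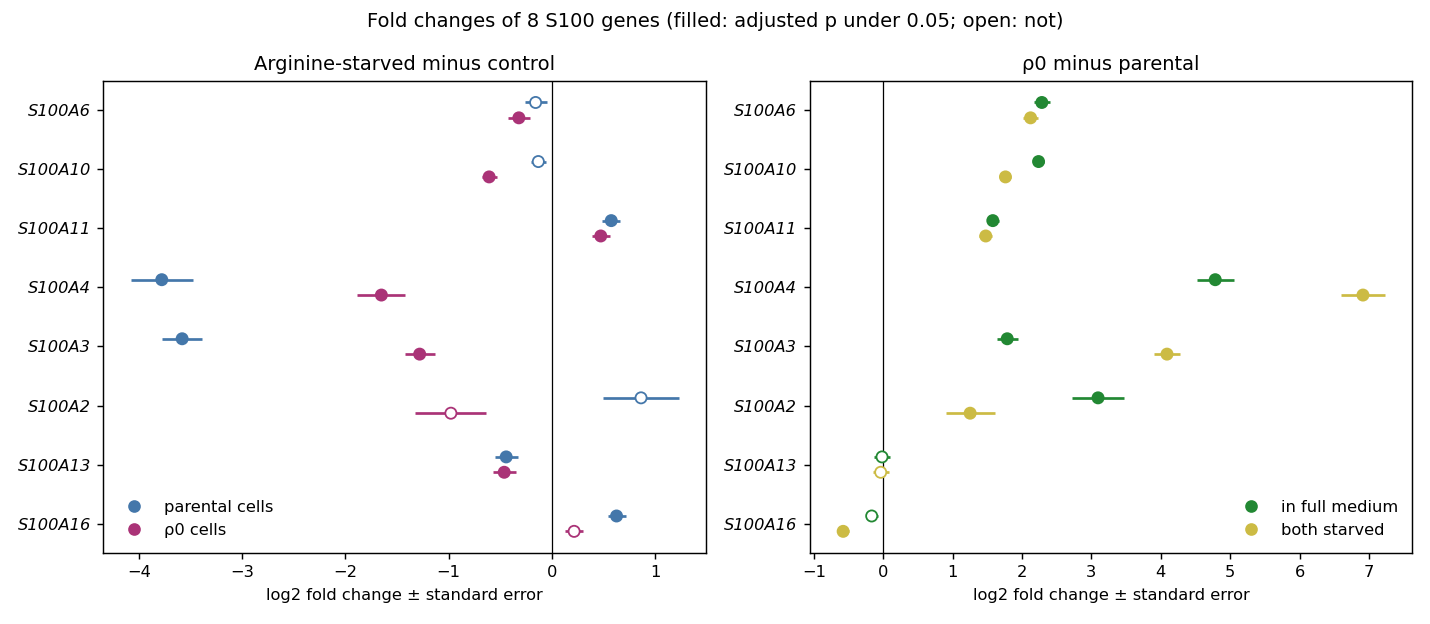
Log2 fold changes with standard errors of 8 S100 genes, on the left for starvation in parental and ρ0 cells and on the right for ρ0 against parental cells in full medium and after starvation (filled, edgeR adjusted p under 0.05). S100A4 lies at -3.78 and -1.65 for starvation, and S100A11 at 0.58 and 0.47.

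In ρ0 cells starvation was followed by a rise of S100A11 alone among the members and by falls of S100A3, S100A4, S100A6, S100A10 and S100A13. S100A2 and S100A16 did not pass the test. Over all tested genes 19.2% rose and 22.1% fell, with 8.19% falling as DEGs. In fits without ρ0 control library 1 or 2, 8 members passed in place of 6, while the share of all tested genes that passed went from 41.3% to 63.9% and 63.3%. The median was -0.02 over all genes and -0.53 over the 8 members. S100A4 fell from 1019 and 587 to 254 and 257 CPM (log2 -1.65 ± 0.23, edgeR adjusted p = 0.00153). S100A3 fell from 43.2 and 33.0 to 16.02 and 15.3 CPM (log2 -1.28 ± 0.15, edgeR adjusted p = 0.000657). Neither gene overlapped between groups, and both were DEGs. On leaving out ρ0 control library 1 or 2 the changes were -1.20 and -1.98 for S100A4 and -1.07 and -1.45 for S100A3.

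S100A10, the annexin A2 partner, fell from 735 and 712 to 478 and 472 CPM (log2 -0.61 ± 0.07, edgeR adjusted p = 0.000817), with -0.58 or -0.62 without ρ0 control library 1 or 2. S100A13 fell from 61.7 and 49.4 to 41.1 and 39.6 CPM (log2 -0.46 ± 0.11, edgeR adjusted p = 0.0149), with -0.29 or -0.60 without ρ0 control library 1 or 2. The S100A13 call was lost without either starved library (edgeR adjusted p = 0.0878 and 0.116) and in the ρ0 libraries alone (0.0942). S100A6 went from 3802 and 3146 to 2799 and 2769 CPM (log2 -0.32 ± 0.11, edgeR adjusted p = 0.0447). It was close to the threshold, with -0.18 and -0.44 when ρ0 control library 1 or 2 was left out, and did not pass with the replicate number as a block (edgeR adjusted p = 0.0632), with DESeq2 size factors (0.0539), in the ρ0 libraries alone (0.197) or without either starved library (edgeR adjusted p = 0.198 and 0.221). S100A11 rose from 629 and 551 to 836 and 803 CPM (log2 0.47 ± 0.09, edgeR adjusted p = 0.00486), with 0.57 or 0.39 without ρ0 control library 1 or 2, and did not pass in the ρ0 libraries alone (edgeR adjusted p = 0.0539). S100A16 had 320 and 279 CPM before and 352 and 344 after starvation, without overlap (log2 0.22 ± 0.09, edgeR adjusted p = 0.0840). It passed at 0.32 or 0.13 when ρ0 control library 1 or 2 was left out. S100A2 stood at 115 and 49.4 CPM before and 41.7 and 41.6 after starvation, and its log2 change of -0.98 ± 0.34 did not pass the test (edgeR adjusted p = 0.0551). The value depends on ρ0 control library 1, since it was -0.25 without it and -1.45 without library 2, past the test both times (edgeR adjusted p = 0.0322 and 2.31e-10). It also passed with total count scaling, no filter, the DESeq2 test and group weights in limma-voom.

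The study asked whether responses to arginine starvation depend on mitochondria, so the difference between the responses was tested as an interaction, the ρ0 change minus the parental change. It passed for 5 members, higher for S100A3 and S100A4 and lower for S100A2, S100A10 and S100A16. Of all tested genes, 21.6% were higher and 18.8% lower. Without ρ0 control library 1 or 2 the count was 5 and 8, and without 1 of the other libraries it was 2 or 3. The share of all tested genes moved alike, from 40.4% to 67.4% and 60.7% without ρ0 control library 1 or 2, and to between 23.3% and 26.2% without 1 of the others. S100A3 fell by less in ρ0 cells, by a log2 difference of 2.30 ± 0.25 (edgeR adjusted p = 0.000776). S100A4 did so by 2.13 ± 0.38 (edgeR adjusted p = 0.00470). Without ρ0 control library 1 or 2 the differences were 2.51 and 2.10 for S100A3 and 2.58 and 1.76 for S100A4. S100A2 changed by -1.84 ± 0.50 relative to parental cells (edgeR adjusted p = 0.0235), with -1.12 or -2.36 without ρ0 control library 1 or 2, and did not pass without any 1 of the other 6 libraries (edgeR adjusted p between 0.0591 and 0.0970). S100A10 differed by -0.48 ± 0.10 (edgeR adjusted p = 0.0101), with -0.45 or -0.53 without ρ0 control library 1 or 2. It did not pass without parental starved library 1 or 2 or ρ0 starved library 2 (edgeR adjusted p = 0.0555, 0.0545 and 0.0536). S100A16 differed by -0.41 ± 0.12 (edgeR adjusted p = 0.0327), with -0.31 or -0.53 without ρ0 control library 1 or 2, and was lost without any 1 of the other 6 libraries (edgeR adjusted p between 0.0769 and 0.118). S100A6 (-0.16 ± 0.15), S100A11 (-0.10 ± 0.13) and S100A13 (-0.02 ± 0.16) did not pass the test (edgeR adjusted p = 0.419, 0.552 and 0.947), but S100A6, S100A11 and S100A13 all passed without ρ0 control library 2, at -0.32, -0.22 and -0.20. On leaving out library 1 their values were -0.020, -0.0026 and 0.15, which did not pass the test. The interaction of S100A9 was not read, since both ρ0 groups were at or under the floor of 3 counts.

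Partners of the S100 proteins were followed with the members. Of the annexins and the membrane scaffold AHNAK (6 genes, all tested), 4 fell and 1 rose in parental cells (35.5% and 30.4% of all tested genes) and 2 fell and 1 rose in ρ0 cells (22.1% and 19.2% of all). On leaving out ρ0 control library 1 or 2, 2 and 3 fell and 2 and 1 rose in ρ0 cells. In parental cells ANXA6 (log2 -3.08 ± 0.30, edgeR adjusted p = 8.79e-05) and ANXA1 (-1.38 ± 0.08, 1.18e-05) had the largest changes, while S100A11, the ANXA1 partner, rose. Between the control groups 4 of the 6 were higher and ANXA11 was lower in ρ0 cells (30.5% and 31.8% of all tested genes), with AHNAK higher by 1.27 ± 0.14 (edgeR adjusted p = 0.000171) and ANXA1 by 0.999 ± 0.08 (edgeR adjusted p = 2.96e-05). ANXA6 differed by -0.27 ± 0.27 and did not pass (edgeR adjusted p = 0.414), but passed at -0.87 or 0.20, in opposite directions, without ρ0 control library 1 or 2. ANXA2, named here as the partner of S100A10, stood at 492 and 525 CPM in parental control, 390 and 395 in parental starved, 755 and 771 in ρ0 control and 786 and 770 in ρ0 starved cells. Its difference between the control groups, 0.59 ± 0.07 (edgeR adjusted p = 0.000356), was smaller than that of S100A10, 2.24 ± 0.08, and the 2 were not tested against each other. S100A10 with ANXA2 binds plasminogen at the cell surface, and 3 of 4 plasmin genes were tested. PLAT and PLAU, the plasminogen activators, fell in parental cells (log2 -3.24 ± 0.36 and -3.86 ± 0.22, edgeR adjusted p = 0.000161 and 1.19e-05). In ρ0 cells PLAT stood at 992 and 419 CPM in control and 1490 and 1542 in starved libraries. Its rise of 1.10 ± 0.33 (edgeR adjusted p = 0.0319) rests on an uneven control pair, and was 1.85 or 0.62 without ρ0 control library 1 or 2. PLAU changed by 0.41 ± 0.19 and did not pass the test (edgeR adjusted p = 0.128), but passed at 0.79 or 0.12 without library 1 or 2. PLAUR, the receptor of urokinase, did not pass in any of the 5 comparisons with all libraries. Without library 1 it passed in ρ0 cells, at 0.33, and in the interaction, at 0.30, and without library 2 between the control groups, at 0.52. PLG was at 0 in every library.

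MYH9, the non-muscle myosin IIA heavy chain bound by S100A4, fell in both lines (log2 -0.78 ± 0.07 in parental and -0.68 ± 0.07 in ρ0 cells, edgeR adjusted p = 8.57e-05 and 0.000568). It was higher in ρ0 control than in parental control cells by 0.84 ± 0.07 (edgeR adjusted p = 6.03e-05). CACYBP, the calcyclin-binding protein of S100A6, also fell in both (log2 -0.83 ± 0.09 and -0.75 ± 0.09, edgeR adjusted p = 0.000151 and 0.000810). Of the proteins exported with S100A13, FGF1 fell in parental and ρ0 cells (log2 -2.87 ± 0.35 and -2.40 ± 0.35, edgeR adjusted p = 0.000249 and 0.00181). IL1A rose in ρ0 cells from 4.16 and 3.02 to 70.6 and 70.3 CPM (log2 4.30 ± 0.15, edgeR adjusted p = 1.62e-05). In parental cells it stood at 74.4 and 78.8 CPM before and 68.5 and 71.0 after starvation (log2 -0.14 ± 0.12, edgeR adjusted p = 0.344). IL1A was thus lower in ρ0 control than in parental control cells (log2 -4.42 ± 0.15, edgeR adjusted p = 9.56e-07). Between the starved groups it differed by 0.01 ± 0.12 (edgeR adjusted p = 0.920). Among receptors of exported S100 proteins, 4 of 5 were tested, of which 2 were higher and 2 lower in ρ0 control cells (30.5% and 31.8% of all tested genes). TLR4, which calprotectin binds, was lower in ρ0 control than in parental control cells (log2 -2.82 ± 0.17, edgeR adjusted p = 9.79e-06). AGER, the gene of RAGE, was lower as well (log2 -1.56 ± 0.30, edgeR adjusted p = 0.00280), with 2.82 and 2.81 CPM in parental control and 0.937 and 0.965 in ρ0 control cells.

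The members lie in a row on chromosome 1, where RefSeq places S100A10 and S100A11 side by side and, 52 protein-coding genes further, S100A6, S100A5, S100A4, S100A3, S100A2, S100A16, S100A14, S100A13 and S100A1. The genes between, which include S100A9, S100A8 and many genes of the skin's outer layer, were mostly silent, with 36 of the 48 found in the table at 3 counts or fewer in every library. In the second block, S100A6, S100A4, S100A3 and S100A2 were higher in ρ0 control cells. S100A5, which lies among them, had 9 and 15 counts in parental control and 180 and 126 in ρ0 control cells. It passed the filter on low counts only through ρ0 cells, so its test between the lines is not read. S100A16 and S100A13, next in line, were not past the test, while S100A14, which lies between them, had 5 and 4 counts in parental control and 17 and 16 in ρ0 control cells. It passed the filter only through ρ0 control cells, so its test is not read. S100A1 was at 15 and 19 counts in parental control and 24 and 39 in ρ0 control cells, a difference of 0.92 ± 0.45 that did not pass the test (edgeR adjusted p = 0.108) but did at 1.19 without ρ0 control library 1. The next genes, CHTOP and SNAPIN, differed by -0.44 ± 0.08 and 0.25 ± 0.11 (edgeR adjusted p = 0.00172 and 0.0820), and SNAPIN passed at 0.29 or 0.27 without ρ0 control library 1 or 2. On starvation CHTOP rose in both lines, by log2 1.05 ± 0.08 and 1.17 ± 0.08, and SNAPIN fell in both (log2 -2.77 ± 0.13 and -1.66 ± 0.12), all past the test. S100A4 and S100A3, which are neighbours, were thus not the only genes of the stretch to fall. S100A4 overlaps S100A5 by 65 bases in RefSeq, and S100A5 counts were between 0.339% and 1.66% of those of S100A4 wherever S100A5 was counted. S100A13 spans all of S100A1 (3606 bases) and overlaps CHTOP by 296 bases, and since the strand setting of the counting is not given, reads of such genes cannot be told apart. RefSeq also lists 10 S100A11 pseudogenes, none of which is a row of the table, so S100A11 counts are uncertain to the extent that reads were shared.

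**Figure D4:**
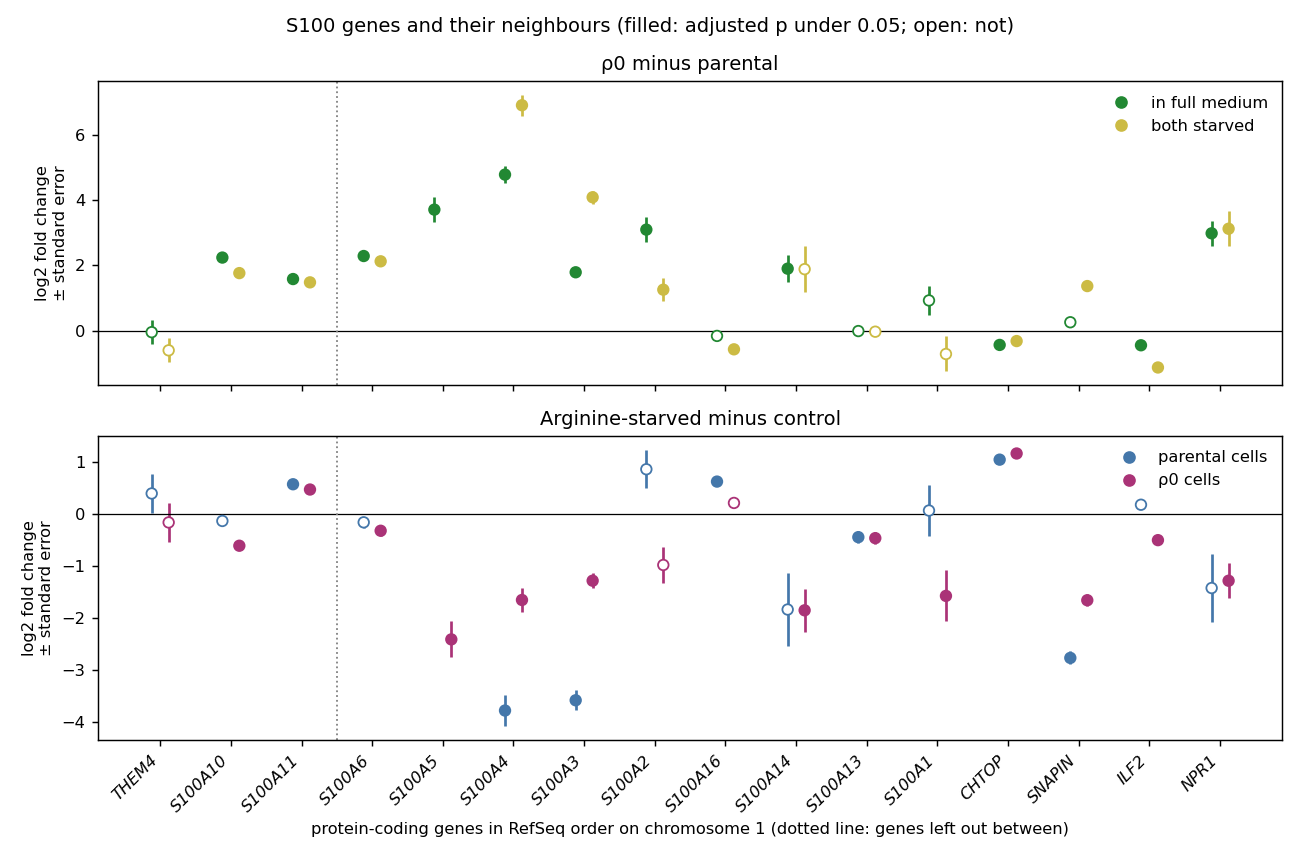
Log2 fold changes with standard errors of S100 genes and their neighbours in RefSeq order on chromosome 1, above for ρ0 against parental cells and below for starvation (filled, edgeR adjusted p under 0.05). S100A6 to S100A2 lie above 0 in full medium and S100A16 and S100A13 near 0. S100A5 has no point where a group was at 0 and passed the filter only through ρ0 cells. S100A14 passed the filter only through ρ0 control cells.

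Other S100 genes in the table were 11, of which 5 could be tested, all at low levels. In ρ0 cells starvation was followed by a fall of S100A5 (log2 -2.41 ± 0.34, edgeR adjusted p = 0.00250) and S100A1 and by a rise of S100P, from 9 and 20 to 71 and 57 counts (log2 2.29 ± 0.37, edgeR adjusted p = 0.00262), with 1.88 or 2.93 without ρ0 control library 1 or 2. S100A5 fell from 9 and 15 counts to 0 and 0 in parental cells, at least 3.51-fold against a floor of 3 counts per library. S100G was counted in parental cells alone, with 34 and 35 counts in control and 28 and 17 in starved libraries. S100A7, S100A7A, S100A7L2, S100A12 and S100B had at most 1 count in any library, and S100Z at most 8.

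Profiles over the 8 libraries were compared by the root mean square distance between log2(CPM + 0.5) values centered on each gene's mean. The closest pair of members was S100A6 and S100A10, at 0.16 on the log2 scale, and the next was S100A2 and S100A10 at 0.47. S100A3 and S100A4, both lower after starvation in each line, were 1.54 apart. Among 9951 tested genes with a mean of at least 10 CPM, those nearest to S100A6 were SGK223 (0.12), MEGF9 (0.13) and SUSD1 (0.16). MEGF9 (0.15), S100A6 (0.16) and CENPQ (0.17) were nearest to S100A10. Among the genes near S100A4 were TGFBI, at 0.52, and APOL1, at 0.56. S100A3 was nearest to EPS8L2 (0.18), CDA and LRRC16A (0.21 each). The shortest distances to another gene were those of S100A13 with CYB5R3 (0.05), AK4 (0.06) and USB1 (0.06), S100A16 with DERL1, ATG2B (0.06 each) and ZNF286A (0.07), and S100A11 with SLC38A9 (0.07), USP9X (0.10) and MAP1B (0.11). S100A2 was nearest to TUBB2A (0.34), SUSD1 and SLC31A2 (0.39 each), and S100A9 to GPSM3 (0.22), PIK3CD (0.23) and TRAPPC9 (0.26). Outside parental control cells S100A9 had 3 counts or fewer per library. There the added 0.5 CPM outweighed its level, so its distances say little. With 4 groups of 2 libraries these distances describe the order of the group means for the most part.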

How the data were processed

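The authors deposited 1 table of raw counts per gene symbol for the 8 libraries, without normalization, in whole numbers. The submitters' processing notes name Bowtie, Partek and hg19 without versions. The annotation, the counting tool and its strand setting are not given in the sources used here, so no hg19 coordinates are printed. All columns of the table matched a sample, and all libraries were used. The labels do not say whether the libraries of a group came from separate cultures, so p-values measure the spread between these libraries, which may be technical. No replicate pair agreed within sampling noise.

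The test was run in R (4.3.3) by edgeR (4.0.16). Genes were kept by filterByExpr (15262 of 23393, of which 20083 had any count), scaled by TMM and fitted with 1 mean per group over all 8 libraries, which left 4 residual degrees of freedom with a prior of 3.40 and a biological coefficient of variation of 12.4%. The quasi-likelihood test with Benjamini-Hochberg adjustment gave 5 contrasts. Standard errors are the log2 fold change over the square root of F. Fold bounds use a floor of 3 counts per library, and counting intervals and floors cover counting error only.

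The members, gene lists, named-gene rule and tests were chosen with earlier results of these data known. Named are the 10 members, as examples the 2 genes of a list with the largest change in the contrast described, and per member the 3 genes with the nearest profile (with a pseudocount of 0.5 CPM), of which 1 is not reported here. ANXA2, MYH9, CACYBP, IL1A, the neighbouring genes and the promoter motifs were chosen after their values were seen. Promoters and gene order are from RefSeq (GRCh38.p14, all 10 members matched), and lengths are medians of GENCODE v29 protein-coding transcripts, between 509 and 1037 bases for the members. Alternatives were DESeq2's size factors, upper quartile and total count scaling, no filter, at least 10 counts in every library, DESeq2 1.42.0, limma-voom (limma 3.58.1) with and without group weights, a replicate block, 1 line alone, and leaving out each library. S100A9 was left out of member counts after the data were seen. Figures were drawn with matplotlib 3.10.9.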

Additional observations from a re-analysis of the deposited data

Results flagged for a closer look

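The responses of 5 S100 genes to starvation differed between the lines by the interaction test (edgeR's quasi-likelihood test with Benjamini-Hochberg adjustment), which 40.4% of all tested genes passed. The S100A2 and S100A16 calls were lost without any 1 of the 6 libraries other than ρ0 control, and that of S100A10 without any 1 of 3. S100A4 and S100A3 fell in both lines, but by less in ρ0 cells, with log2 differences of 2.13 and 2.30. The ρ0 levels started higher, and after starvation they were still above those of parental control cells, with S100A4 at 254 and 257 CPM against 26.9 and 31.4 and S100A3 at 16.02 and 15.3 CPM against 10.6 and 11.5. S100A2 moved in opposite directions, higher in both parental starved libraries and lower in both ρ0 starved libraries than in their controls, with a difference of -1.84. Neither of its separate responses passed the test, although the parental one passed under 4 alternatives and the ρ0 one under 6. S100A10 fell in ρ0 cells and did not pass the test in parental cells (log2 -0.13, edgeR adjusted p = 0.153), with a difference of -0.48. S100A16 rose in parental cells and did not pass the test in ρ0 cells, with a difference of -0.41.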

How the results depend on the processing

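Counts of members past the test, S100A9 left out, kept within 1.5 times their values under the alternatives, except as follows. In parental cells 8 members changed on starvation, in place of 5, with group weights in limma-voom. The share of all tested genes that passed went from 65.9% to 80.1% there. In ρ0 cells 3 members changed on starvation, in place of 6, when the ρ0 libraries were fitted alone. The count for the difference between responses, 5, ranged from 2 to 8 on leaving out 1 library. S100A13, whose differences between the lines and between responses did not pass the test, changed sign. Its interaction was 0.075 with upper quartile scaling and 0.067 with total counts, and -0.20 to 0.15 with 1 library left out. Its difference in full medium was 0.0064 with no filter, and -0.19 to 0.19 with 1 library left out. Its difference when starved was 0.033 with upper quartile scaling and 0.00056 with no filter, and -0.038 to 0.019 with 1 library left out. The cause was not tested. S100A16's interaction was lost with upper quartile and total count scaling (-0.32 and -0.33), and that of S100A2 with limma-voom (-1.73). Scaling to total counts moved the median of all genes by 0.1 or less, save in parental cells (from -0.07 to -0.23). Replicate numbers did not pair the libraries (correlations of same-numbered deviations between -0.05 and 0.04). With the replicate number as a block, the S100A6 fall in ρ0 cells was -0.32 (edgeR adjusted p = 0.0632), and no other member's call changed. Leaving S100A9 out, a choice made after seeing the data, took the count from 6 to 5 in parental cells and from 7 to 6 between the lines in full medium, and left the others as they were. Depth limits S100A8, with counts in 1 library, and S100A9, at 3 counts or fewer outside parental control cells.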

Other observations

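Other calcium-binding genes of the EF-hand type, 31 in number and with 27 tested, were mostly lower in parental starved than in parental control cells. Of the 27, 17 fell and 3 rose (35.5% and 30.4% of all tested genes), with a median log2 change of -0.97 against -0.07 over all genes. RCN3, a reticulocalbin of the secretory pathway, changed by log2 -5.25 ± 0.20 (edgeR adjusted p = 6.54e-06). In ρ0 cells 12 fell and 2 rose (22.1% and 19.2% of all), with a median of -0.39. On leaving out ρ0 control library 1, 11 fell and 9 rose, with a median of -0.09, and without library 2, 19 fell and 3 rose, with a median of -0.59. With all libraries the difference between responses was past the test for 11 genes, all higher, and for 0 lower. Of all tested genes 21.6% were higher and 18.8% lower. The median was 0.36 against 0.02 over all genes. Without ρ0 control library 1 or 2 the median was 0.48 or 0.13, against 0.05 or 0.03 over all genes. In each of these 2 fits some genes were past the test in the lower direction too, so the calls were not all higher. SPARC, a secreted glycoprotein, went from 2.19 and 2.54 CPM in parental control to 0.0792 and 0.0354 in parental starved cells, at 3 counts or fewer in each starved library.

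Fused-type S100 genes, which encode skin proteins and lie beside S100A11, numbered 7, of which 4 were tested. FLG, filaggrin, rose in parental cells from 14.9 and 13.6 to 25.7 and 25.7 CPM and fell in ρ0 cells from 52.8 and 45.2 to 18.9 and 21.7 CPM, with a difference between responses of -2.12 ± 0.17 on the log2 scale (edgeR adjusted p = 0.000310). The groups did not overlap in either line. HRNR, hornerin, was higher in ρ0 than in parental control cells by 2.06 ± 0.32 (edgeR adjusted p = 0.000979).

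C/EBP genes, whose products are known to act on the S100A8 and S100A9 promoters, were lower in ρ0 control than in parental control cells for the 3 tested of 4 (31.8% of all tested genes), with CEBPA at log2 -3.20 ± 0.43 (-2.58 or -4.30 without ρ0 control library 1 or 2) and CEBPD at -1.69 ± 0.25 (edgeR adjusted p = 0.000457 and 0.000745). SPI1, the gene of the myeloid factor PU.1, had at most 11 counts in any library.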
